A study of Mus musculus with 12 samples.

Results

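The Sox factors described here are 9 genes known for their parts in neural progenitors (Sox1, Sox2, Sox21), young neurons (Sox4, Sox11) and interneurons or glia (Sox6, Sox8, Sox9, Sox10). Their members were all regions in the 5-methylcytosine (5mC) and 5-hydroxymethylcytosine (5hmC) tables whose annotated gene symbol was one of these names. This gave 70 regions of 102563, of which 30 of 55085 were 5mC peaks and 40 of 47478 were 5hmC peaks. Sox2 had 24 5mC and 22 5hmC peaks, Sox11 had 1 and 11, Sox4 had 2 and 3, Sox8 had 2 and 3, and Sox10 had 1 of each. Sox1, Sox6, Sox9 and Sox21 had no region under their own symbol in either table.

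All cells came from the cortex of mouse embryos at mid-corticogenesis (E14.5) that carried both a Btg2-RFP and a Tubb3-GFP reporter allele. The 3 cell types were sorted on the reporters: proliferating progenitors (PP, labelled as neuronal stem cells, Btg2-/Tubb3-), neurogenic progenitors in differentiation (DP, Btg2+/Tubb3-) and neurons (Tubb3+, with or without Btg2). Each population was thus defined by promoter activity of a reporter and not by a Sox protein, and it may hold cells of more than one lineage. Sheared DNA with an adaptor barcode for each cell type was enriched for 5mC (MeDIP) or 5hmC (hMeDIP) in a joint reaction. The labels list 12 samples, 6 immunoprecipitated and 6 input, 1 for each mark, cell type and fraction. The study's methods state 3 biological replicates of each cell type, which these labels do not separate.

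The tables hold 1 level per peak and cell type, the authors' mean over their replicates on a log2 scale, so neither a replicate spread nor a test could be computed for any value below, the number of reads behind a level is unknown, and every difference is a description. A change is the later level minus the earlier, less the median difference over all peaks of that mark. That median was −0.18 for 5mC from DP to neurons and −0.17 from PP to neurons, and −0.08 for 5hmC from PP to neurons. A peak is called higher or lower where its change is at least 0.58 in size on the log2 scale, which is 1.5-fold, and the gains and losses named below are such calls.

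Sox proteins bend DNA at a short A/T-rich core and act with partner factors. Sox1 and Sox2 (group B1) keep neural progenitors undifferentiated, and Sox21 (group B2) opposes them. Sox4 and Sox11 (group C) activate genes of the neuronal cytoskeleton and identity once cells leave the cycle, whereas Sox8, Sox9 and Sox10 (group E) serve glial fate and myelination and Sox6 (group D) acts in interneurons and the oligodendrocyte lineage. Methylated cytosine at regulatory DNA is commonly linked to silencing, and 5hmC is made from 5mC by Tet enzymes and is abundant in neurons.

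None of the members' start sites lay under a peak of either mark. RefSeq start windows on the mm10 build (GRCm38.p6) could be matched for 7 of the 9 genes, 12 windows in all, and the 250 bases before the start overlapped no peak in any of them. Over all 32851 RefSeq promoters of that length, 0.935% overlapped a 5mC peak and 1.12% a 5hmC peak, so that the absence is the usual case. The windows of Sox2, Sox11, Sox4 and Sox8 are shown 5′ to 3′ because these are the genes whose surroundings, and not whose starts, carry the peaks described next. Capitals mark CpG, the dinucleotide in which both marks mostly occur.
Sox2, chr3:34649745-34649994, plus strand: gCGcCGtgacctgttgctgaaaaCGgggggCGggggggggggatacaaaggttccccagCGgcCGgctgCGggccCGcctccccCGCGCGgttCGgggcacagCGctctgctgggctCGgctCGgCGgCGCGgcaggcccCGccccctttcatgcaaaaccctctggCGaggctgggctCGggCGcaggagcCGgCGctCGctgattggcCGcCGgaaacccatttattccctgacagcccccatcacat
Sox11, chr12:27342719-27342968, minus strand: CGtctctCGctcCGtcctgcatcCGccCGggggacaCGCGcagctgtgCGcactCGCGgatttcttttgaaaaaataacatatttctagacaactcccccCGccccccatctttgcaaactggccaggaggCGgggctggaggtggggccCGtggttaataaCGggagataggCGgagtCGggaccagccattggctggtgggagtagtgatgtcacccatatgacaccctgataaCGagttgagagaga
Sox4, chr13:28953700-28953949, minus strand: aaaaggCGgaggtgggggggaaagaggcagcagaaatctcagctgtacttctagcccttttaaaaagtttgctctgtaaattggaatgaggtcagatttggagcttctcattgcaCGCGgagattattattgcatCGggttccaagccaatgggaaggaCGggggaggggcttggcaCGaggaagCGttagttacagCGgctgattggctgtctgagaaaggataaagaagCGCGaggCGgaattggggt
Sox8, chr17:25570687-25570936, minus strand: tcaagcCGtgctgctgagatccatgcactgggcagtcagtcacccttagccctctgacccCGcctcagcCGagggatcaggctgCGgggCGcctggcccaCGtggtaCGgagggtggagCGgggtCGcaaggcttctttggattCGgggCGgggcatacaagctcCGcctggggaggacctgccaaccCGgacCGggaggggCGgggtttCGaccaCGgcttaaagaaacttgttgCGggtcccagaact
The Sox2 window held 27 CpG, more than 91.4% of all promoters, against a median of 6. Sox8 had 18, Sox11 had 17 and Sox4 had 11. The Sox core ACAAAG, sought on both strands, was present once in the Sox2 window and in none of the other windows shown, and 16.5% of all promoters held it. The core ACAAT was in none of these windows (27.7% of all promoters), and the E-box CANNTG was in those of Sox11, Sox4 and Sox8 but not of Sox2 (66.2%). The nearest 5mC peak to these windows lay 41.0 kb away for Sox2, 122.1 kb for Sox11, 3.4 kb for Sox8 and 1.2 kb for Sox4. The nearest 5hmC peak lay 14.3 kb, 7.1 kb, 1.3 kb and 17.0 kb away, respectively, and the one near Sox2 carried the symbol Mir1897 of the upstream side.

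The members with peaks split in expression along the lineage. The deposited expression values come from the authors' earlier RNA sequencing of the same cell types and are on a scale that the sources used here do not name, so they are compared within a gene only. Sox2 had a value of 16755.4 in PP, then 10576.4 in DP and 1651.9 in neurons, a log2 change, after adding 1 to each value, of −0.66 and then −2.68. Sox8 had 5214.7, 1386.0 and 64.9, or −1.91 and −4.40. Sox10 had 8.9 and 3.2 and was listed at 0 in neurons. The 3 genes thus were highest in PP and lowest in neurons. Sox4 had 26861.9 in PP, then 63059.6 in DP and 87784.6 in neurons, a log2 change of 1.23 and then 0.48. Sox11 had 8347.3, 25068.0 and 41607.6, or 1.59 and 0.73. Both group C genes were highest in neurons and had made the larger part of their increase, on the log2 scale, by DP.

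Of the 5 genes, 2 were called higher and 3 lower from PP to DP, where 13.9% and 17.1% of the 16293 genes in the tables were called. From DP to neurons 1 was higher and 3 were lower (26.4% and 26.3% of all genes), and from PP to neurons 2 were higher and 3 lower (30.0% and 31.4%). The count of lower genes includes Sox10, whose values lie close to 0.

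**Figure D1:**
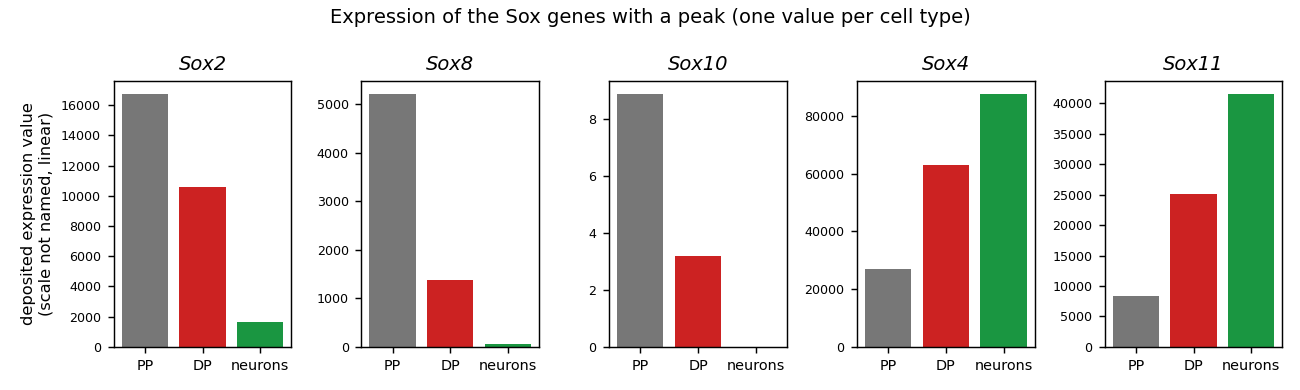
Deposited expression value (linear, scale not named) of each Sox gene with a peak in PP (grey), DP (red) and neurons (green), 1 value per bar and a separate axis per gene. Sox2, Sox8 and Sox10 are highest in PP, whereas Sox4 and Sox11 are highest in neurons, where Sox11 reaches 41607.6.

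Sox2 carried 46 of the 70 regions, and all of them lay downstream of the gene. Sox2 is a short gene, 2.5 kb in RefSeq, and no protein-coding gene follows it for 1101.6 kb, up to Atp11b. Its 5mC peaks stood 41.0 to 322.9 kb and its 5hmC peaks 49.1 to 322.8 kb downstream of its transcription start site (TSS). Peaks on the upstream side carried the symbols Mir1897 and Gm20515. Only 75 of 14361 symbols had as many 5mC peaks as Sox2 and 112 of 12848 had as many 5hmC peaks, where the median symbol had 3 and 2. Of these peaks, 13 5mC and 12 5hmC were over no RefSeq gene. The remainder were over long non-coding RNA genes, chiefly Gm21388 with 5 5mC and 7 5hmC peaks. None of these RNAs had an expression value in the tables, and a peak's symbol is that of a neighbouring gene and does not show which gene it acts on.

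The 5mC peaks of Sox2 were mostly level, with a set of losses in neurons. From PP to neurons 7 of 24 were called lower, 29.2%, against 10.4% of all 5mC peaks and 12.9% of the 10411 that were at least 40 kb past a TSS. Another 2 were called higher, where 5.15% of all peaks were. The median change of the 24 was −0.06 from PP to neurons. It was −0.23 from PP to DP, where 8 of the 24 had a change above 0, and 0.01 from DP to neurons. From PP to DP 3 were called lower (5.56% of all peaks) and none higher (4.72%), and from DP to neurons 6 were lower (9.48%) and none higher. The 6 other member peaks of 5mC gave a single call, a higher Sox10 peak from DP to neurons, where 5.23% of all peaks were higher.

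The lowest 5mC level of any member was at the peak 126.9 kb downstream of Sox2 (chr3:34776807-34776935), which stood at 4.47 in PP, then 3.80 in DP and 0.47 in neurons, a change of −3.83 from PP to neurons. Only 75 of all 5mC peaks, 0.136%, had a change at least as low. Its level in neurons lay close to the lowest of any 5mC peak, 0.11, so the size of this change is uncertain. The peak nearest to the gene, 41.0 kb downstream (chr3:34690981-34691083), was at 4.20, 3.95 and 1.10, a change of −2.93. In both, neurons were far below PP and DP, and the peak at 126.9 kb was already called lower from PP to DP, with a change of −0.67.

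The 5 other losses were smaller. The peak at 181.9 kb (chr3:34831790-34831958) was at 4.95 in PP, then 4.48 in DP and 3.40 in neurons, the one at 308.6 kb was at 4.71, 4.40 and 3.20, and the one at 253.2 kb was at 4.46, 4.52 and 3.26. The peak at 98.6 kb was at 6.10, 6.02 and 4.98, and the one at 78.0 kb was at 4.55, 4.31 and 3.66. Over all 7 losses the part of the change that was present in DP had a median of 17.5%, with a range of −5.9% to 34.1%, so each of them was mainly a difference between DP and neurons.

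Strong methylation was also held in this stretch. The highest 5mC peak, 55.6 kb downstream (chr3:34705564-34705691), was at 7.27, 7.36 and 7.14, above 98.2% of all 5mC peaks by mean level, and the peak at 222.0 kb was at 6.97, 6.67 and 6.84. The peaks called higher in neurons were at 49.2 kb, with 4.80, 5.10 and 5.31 and a change of 0.68, and at 90.7 kb, with 4.23, 4.40 and 4.70 and a change of 0.64. Without centring on the median these gains were 0.51 and 0.47 and passed no call.

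**Figure D2:**
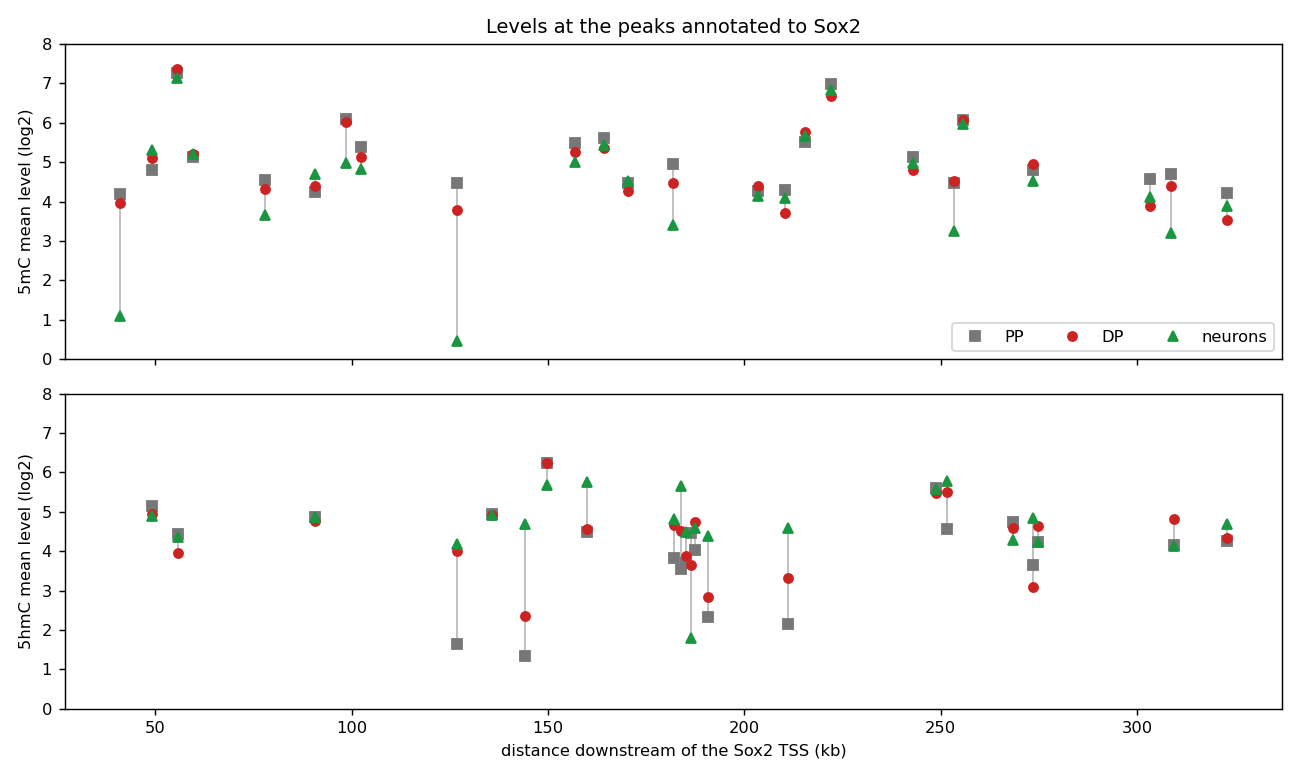
Mean level (log2) of 5mC (top) and 5hmC (bottom) at each peak annotated to Sox2, against distance from the TSS in kb, with PP as grey squares, DP as red circles and neurons as green triangles, 1 value each and a grey line from the lowest to the highest. Neurons drop to 1.10 and 0.47 in 5mC at 41.0 and 126.9 kb, and in 5hmC most green symbols stand above the grey ones between 126.8 and 211.1 kb.

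5hmC differed in the opposite direction at Sox2, and at more peaks. From PP to neurons 11 of 22 peaks were called higher, 50%, against 22.2% of all 5hmC peaks and 24.0% of the 11027 that were at least 40 kb past a TSS. A single peak was called lower (7.91% of all peaks). The median change was 0.57 at Sox2. From PP to DP 8 peaks were higher and 1 was lower, where 11.3% and 4.77% of all peaks were called, and from DP to neurons 7 were higher and 2 lower, where 16.6% and 7.22% were. Peaks close to one gene are not replicates, and these shares were not tested.

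Most of the gains were at peaks with little 5hmC in PP. All 8 Sox2 peaks with a level under 4 in PP were called higher in neurons, and 3 of the 14 at or above 4 were. Of all 5hmC peaks in the tables under 4 in PP, 85.1% were called higher, and 10.4% of those at or above it. The starting level and the gain use the same PP value, so they are not independent measures. The authors also merged peaks found in each cell type, so a peak low in PP can be listed because it was found in DP or neurons. A gain at such a peak is then largely set by how it came to be listed. Likewise a 5mC peak low in neurons can be listed through PP or DP.

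The gains came at different steps. Of the 11, 4 were called from PP to DP alone, 4 from DP to neurons alone and 3 at both steps. The peak at 126.8 kb (chr3:34776719-34776902) gained early, with 1.65 in PP, then 4.00 in DP and 4.19 in neurons, so that 89.6% of its change was present in DP. At 251.5 kb the levels were 4.58, 5.50 and 5.79, and 71.5% was present in DP. The peak with the largest gain of any member, at 144.2 kb (chr3:34794104-34794231), was at 1.34, 2.35 and 4.69, a change of 3.43, and 1.19% of all 5hmC peaks gained as much. At 211.1 kb (chr3:34860998-34861134) the levels were 2.15, 3.32 and 4.60. Late gains were at 159.8 kb, with 4.50, 4.56 and 5.76, and at 273.4 kb, where DP had the lowest level of 3.66, 3.08 and 4.85. The peak at 309.3 kb was called higher in DP and lower again in neurons, at 4.16, 4.82 and 4.12.

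A run of 6 5hmC peaks lay within 8.9 kb, from 182.0 to 190.8 kb downstream, over the long non-coding RNA gene Gm21388. Of these, 5 were called higher from PP to neurons and 1 lower. The peak at 183.8 kb (chr3:34833767-34833930) was at 3.56 in PP, then 4.52 in DP and 5.66 in neurons. The one at 190.8 kb was at 2.33, 2.84 and 4.38. The gains at 182.0, 185.2 and 187.4 kb were 1.07, 0.87 and 0.63, the last of which passed the call only after centring. Between them the peak at 186.4 kb (chr3:34836306-34836535) went against its neighbours, with 4.46, 3.65 and 1.80. Its change of −2.58 was the largest loss of 5hmC among the members, and 18 of all 5hmC peaks, 0.0379%, had a change at least as low. The highest 5hmC level at Sox2 was at 149.7 kb, with 6.24, 6.25 and 5.67.

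**Figure D3:**
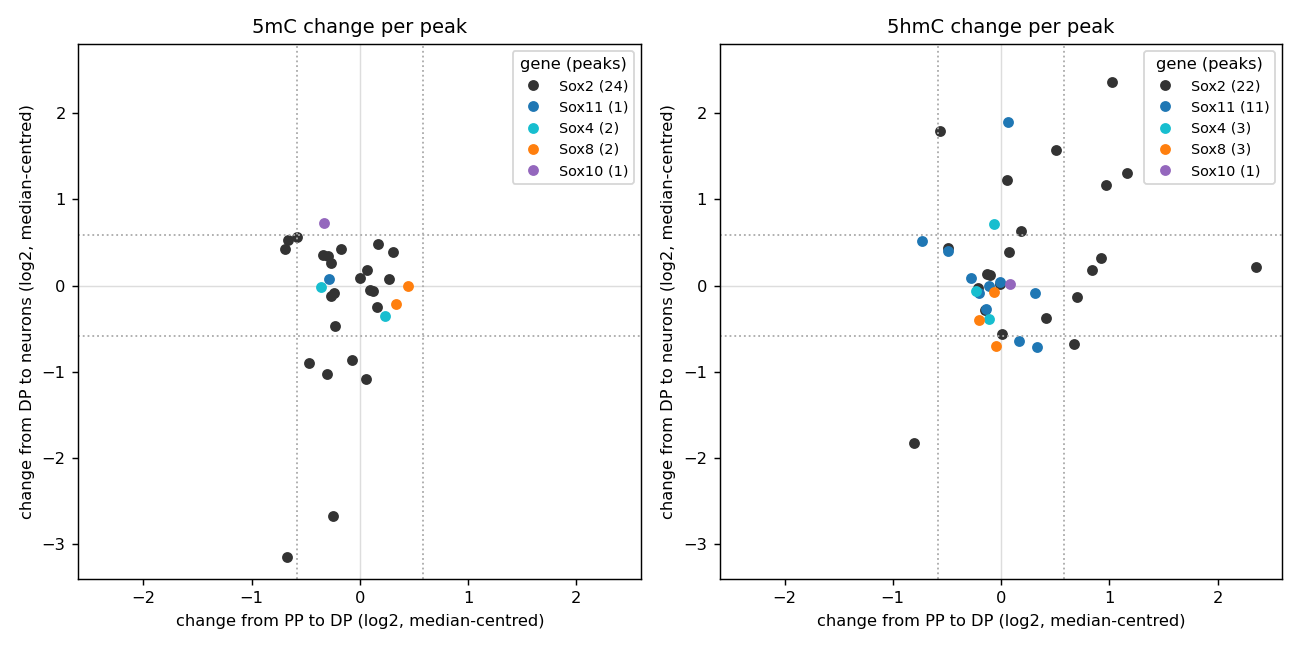
Change of each member peak from PP to DP (x axis) against its change from DP to neurons (y axis), both in log2 units after centring on the median of all peaks, for 5mC (left) and 5hmC (right), coloured by gene, with dotted lines at the call of 0.58. Of the Sox2 5mC peaks 6 lie below the lower dotted line, at the step from DP to neurons, and 3 lie left of the dotted line for the first step, whereas Sox2 5hmC gains spread along both axes and the other genes lie closer to the origin or just past a dotted line, apart from the Sox11 peak with 1.90 at the later step.

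Both marks could be read together at 8 places where a 5mC and a 5hmC peak overlapped by at least 1 bp, 7 at Sox2 and 1 at Sox10. These were 26.7% of the members' 5mC peaks and 20% of their 5hmC peaks, against 12.2% and 14.2% over all genes. The overlaps at Sox2 were short, 27 to 116 bp, and the marks came from separate pull-downs, so their levels are not on a common scale.

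In 2 of the 8 pairs 5mC was called lower and 5hmC higher from PP to neurons, where 19.0% of all 6727 pairs were. They were both of the member pairs with a 5mC loss, and over all genes 77.8% of the 1641 pairs with a 5mC loss had a 5hmC gain. At 126.9 kb 5mC was at 4.47, 3.80 and 0.47 while 5hmC was at 1.65, 4.00 and 4.19. Here most of the 5hmC change was between PP and DP and most of the 5mC change between DP and neurons, although 5mC was called lower at the first step too. At 181.9 kb 5mC was at 4.95, 4.48 and 3.40 and 5hmC at 3.83, 4.67 and 4.82, where 5hmC alone was called at the first step and 5mC alone at the second.

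The 6 other pairs did not combine the calls in this way. At 273.4 kb 5hmC was higher in neurons while 5mC was at 4.80, 4.96 and 4.53. At 49.2 and 90.7 kb 5mC was called higher while 5hmC was at 5.15, 4.94 and 4.89 and at 4.88, 4.77 and 4.87. The peak of strongest 5mC, at 55.6 kb, overlapped 5hmC at 4.45, 3.95 and 4.36. At 322.9 kb 5mC was lower in DP alone, with 4.21, 3.54 and 3.89, and 5hmC was at 4.25, 4.32 and 4.69.

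**Figure D4:**
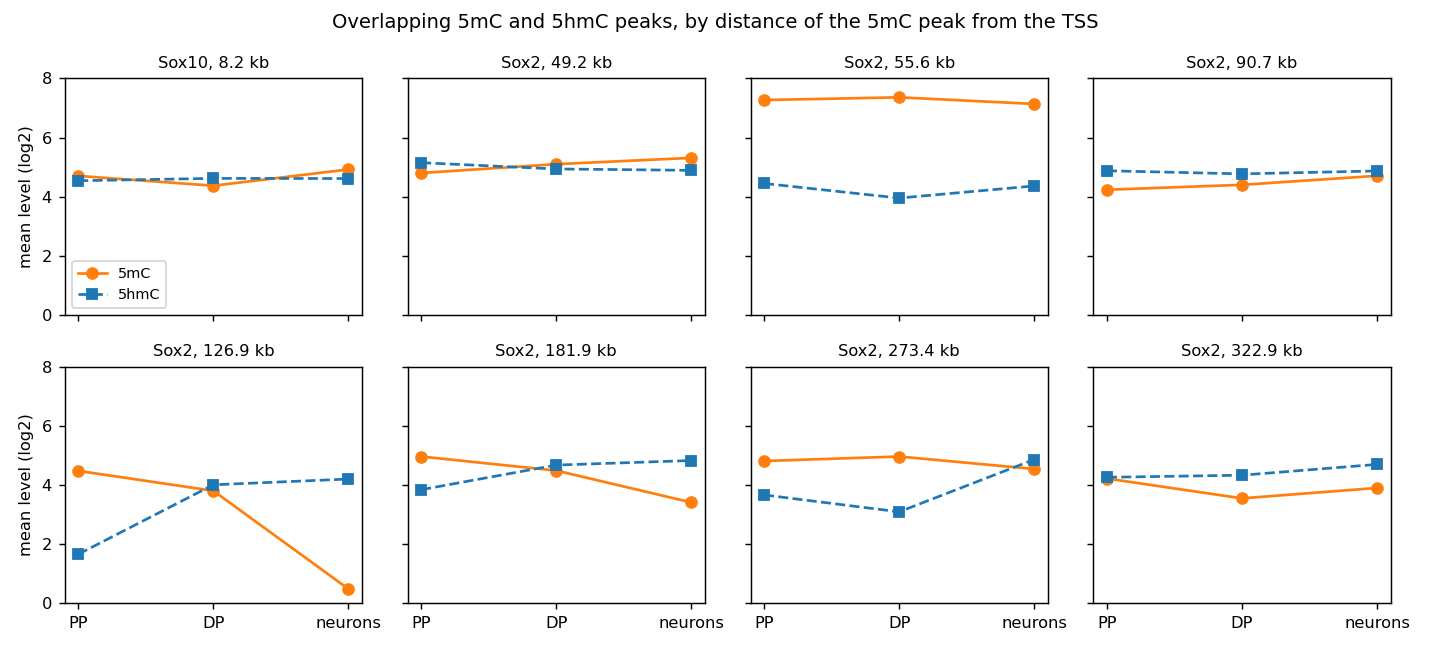
Mean level (log2) of 5mC (orange circles, continuous line) and 5hmC (blue squares, dashed line) in PP, DP and neurons at the 8 places where peaks of both marks overlap, 1 value per point, titled by the gene and the distance of the 5mC peak from its TSS. The lines cross at 126.9 and 181.9 kb of Sox2, where 5hmC is up by DP and 5mC is down in neurons. They also cross at 273.4 kb, at Sox10 and at 49.2 kb, and a crossing has no meaning of its own, since the marks are not on a common scale.

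Sox11, whose expression was highest in neurons, had many 5hmC peaks and a single 5mC peak. Only called peaks are listed, and the authors left out those over repetitive sequences. The number of peaks therefore does not show how much 5mC lay around the gene. Its 11 5hmC peaks, a number reached by 808 of 12848 symbols, lay 7.2 to 79.5 kb downstream and 22.9 to 137.5 kb upstream. Most differed little between cell types, with a median change from PP to neurons of −0.13. The highest were at 107.1 kb upstream, with 6.03, 5.82 and 5.71, and at 58.8 kb downstream, with 5.94, 5.82 and 5.80. The only one called from PP to neurons was 79.5 kb downstream (chr12:27263127-27263267), at 2.30 in PP, then 2.36 in DP and 4.23 in neurons, a change of 2.02 that 5.35% of all 5hmC peaks reached. The largest decrease was at 137.5 kb upstream, with 4.71, 4.87 and 4.21, a change of −0.42 that was under the call, though from DP to neurons it was called lower, at −0.64. The peak 30.9 kb downstream, with 4.19, 4.52 and 3.78, was also called lower from DP to neurons, at −0.72. The peak 112.4 kb upstream was lower in DP alone, with 5.04, 4.31 and 4.80. The peak at 7.2 kb (chr12:27335475-27335630) was inside the gene's RefSeq span, near its 3′ end, though the tables place it downstream, and it was at 4.52, 4.83 and 4.72. The single 5mC peak of Sox11, 122.4 kb upstream, was at 5.41, 5.12 and 5.02.

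Sox4 peaks all lay upstream. Its 5mC peaks were at 1.5 kb (chr13:28955154-28955296), with 5.86 in PP, then 5.50 in DP and 5.30 in neurons, and at 11.8 kb, with 5.30, 5.53 and 5.00. Neither passed a call. The 5hmC peak at 21.1 kb (chr13:28974727-28974888) was at 3.62, 3.56 and 4.25, a change of 0.71 that was called higher. Those at 17.4 and 27.0 kb were at 4.85, 4.73 and 4.32 and at 4.54, 4.30 and 4.22.

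Sox8 had the highest 5hmC of the members, inside the gene itself. The peak 1.4 kb past the TSS (chr17:25569229-25569436) was at 6.90 in PP, then 6.84 in DP and 6.74 in neurons, above 98.5% of all 5hmC peaks by mean level. The peak at 3.2 kb (chr17:25567400-25567586) was at 6.53, 6.48 and 5.75, a change of −0.69 that was called lower and that 4.78% of all 5hmC peaks reached. The peak 23.2 kb downstream was at 6.24, 6.03 and 5.61, a change of −0.54 just under the call. Its 5mC was at 4.55, 4.88 and 4.50 at 3.5 kb inside the gene, and at 4.79, 5.22 and 5.04 at 22.6 kb downstream. All 3 5hmC levels of Sox8 were lowest in neurons, as was its expression. Only the peak at 3.2 kb was called, however. The change at 1.4 kb was −0.08 after centring, and 43.2% of all 5hmC peaks had a change at least as low.

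Sox10, the regulator of oligodendrocytes and neural crest glia, had 1 peak of each mark 8.2 and 8.3 kb past its TSS, within its 9.6 kb span (chr15:79156067-79156417 for 5mC). 5mC was at 4.70, 4.37 and 4.92, which was called higher from DP to neurons with a change of 0.73, a call that was lost without centring. 5hmC was at 4.54, 4.62 and 4.61, within 0.16 of the median change of all peaks.

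**Figure D5:**
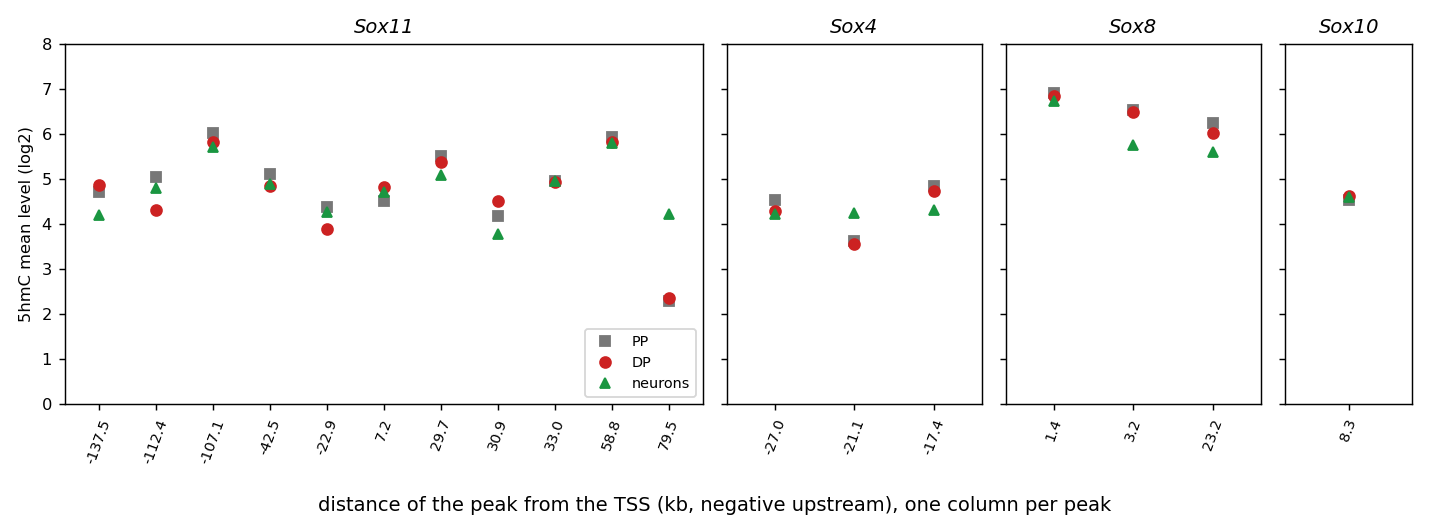
5hmC mean level (log2) at each peak of Sox11, Sox4, Sox8 and Sox10, 1 column per peak at equal spacing and labelled with its distance from the TSS in kb (negative upstream), with PP as grey squares, DP as red circles and neurons as green triangles. Neurons stand well above the other cells only at the Sox11 peak 79.5 kb downstream, with 4.23, and all Sox8 peaks are lowest in neurons.

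Taking all members, 13 of 40 5hmC peaks were called higher from PP to neurons, 32.5%, and 2 lower, against 22.2% and 7.91% of all 5hmC peaks. Without Sox2, 2 of 18 were higher and 1 was lower, with a median change of −0.15. For 5mC, 7 of 30 were called lower and 2 higher with Sox2, against 10.4% and 5.15% of all 5mC peaks, and none in either direction without it. In the comparison of PP with neurons the list's excess over all peaks was thus in the stretch downstream of Sox2. From DP to neurons, however, 5 of the 40 5hmC peaks were called lower, where 7.22% of all peaks were, and 3 of these were at other genes, 2 at Sox11 and 1 at Sox8. The genes with higher and with lower expression in neurons did not divide by direction of 5hmC from PP to neurons. Of the genes lower in expression, Sox2 had 11 gains and 1 loss among 22 peaks, and Sox8 had no gain and 1 loss among 3. Sox11 and Sox4, higher in expression, had 1 gain each, among 11 and 3 peaks.

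The 4 genes without a region of their own were not free of peaks. Sox6 spans 569.9 kb in RefSeq and held 7 5mC and 15 5hmC peaks, all under the symbol 1110006G14Rik, a gene whose expression value was 13.4 in PP and 2.5 in neurons. None of the 7 5mC peaks were called from PP to neurons, where 5.15% of all 5mC peaks were higher and 10.4% lower. Of the 15 5hmC peaks 2 were called higher, where 22.2% of all 5hmC peaks were. From PP to DP 1 5mC peak was called higher (4.72% of all peaks), and 1 5hmC peak was higher (11.3%) and 1 lower (4.77%). From DP to neurons 1 5mC peak was lower (9.48%) and 1 5hmC peak higher (16.6%). The larger 5hmC gain (chr7:115747698-115747818), 293.0 kb from the RefSeq 5′ end of Sox6, was at 3.34, 4.04 and 5.10, a change of 1.84. The other gain (chr7:115768124-115768281) was 0.62, and without centring it was 0.54, under the call. Conversely, the 5mC peak at chr7:115969190-115969326 passed the call only without centring, at −0.72 from PP to neurons. No peak lay over Sox1, Sox9 or Sox21. The nearest 5hmC peak was 7.1 kb from Sox1, 5.0 kb from Sox9 and 8.6 kb from Sox21, and the nearest 5mC peak 26.4, 4.4 and 18.6 kb away, and all of these carried other symbols. Expression of these 4 genes was not analysed here, since a value comes only with a region.

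Among 10 other Sox genes fixed as a list, 8 had a region. From PP to neurons 2 of the 8 were called higher in expression and 5 lower, where 30.0% and 31.4% of all genes were, with a median log2 change of −0.74 against −0.01 for all genes. The count of lower genes includes Sox7, Sox17 and Sox30, whose values were low in each cell type. They were at 13.7, 8.7 and 19.9 in PP and at 7.4, 1.1 and 12.2 in neurons, so the count and the median are uncertain. Sox3, a group B1 relative of Sox2, had values of 9561.9, 4750.1 and 77.2, and Sox13, of group D, had 3781.9, 2021.7 and 100.6. Sox5, a group D factor of deep-layer neurons, had 3542.8, 5977.6 and 41785.7, and Sox12, of group C, had 10522.7, 8435.0 and 18020.3. Of their 23 5mC peaks 1 was called higher and 1 lower, where 5.15% and 10.4% of all peaks were. Of their 18 5hmC peaks 4 were higher and 1 lower, shares close to the 22.2% and 7.91% of all peaks. The single 5hmC peak of Sox12, inside the gene, was at 5.51, 5.67 and 6.57, a change of 1.15.

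Radial glial, intermediate progenitor and neuronal genes, which go with the Sox factors in the lineage, followed their known cell types. All 9 measured radial glial genes, such as Pax6 and Hes5, were called lower in expression from PP to neurons. All 8 intermediate progenitor genes, such as Eomes with 10187.6, 50496.7 and 3626.3, were highest in DP. All 8 measured neuronal genes were called higher, among them Tubb3, the tubulin gene that drives the GFP reporter, with 3814.4, 25259.3 and 105657.4, and Dcx, a microtubule protein of young neurons, with 2305.6, 32460.6 and 119165.8. Of 10 measured glial genes, whose cell types were not sorted, 7 were called lower and 1 higher. Over all genes 30.0% were called higher and 31.4% lower from PP to neurons. The genes of the radial glial list had 39 5hmC peaks, with 3 called higher and 5 lower from PP to neurons, and those of the neuronal list had 37, with 13 higher and 4 lower. The intermediate progenitor list had 35, with 14 higher and 1 lower. Of the 5mC peaks 9 of 27 were lower for the intermediate progenitor list, 13 of 41 for the neuronal list and 2 of 21 for the radial glial list. Over all peaks 22.2% were called higher and 7.91% lower in 5hmC, and 10.4% lower in 5mC.

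In the authors' earlier RNA sequencing all 4 PP markers were highest in PP and all 4 DP markers highest in DP. The 3 measured neuronal markers were highest in neurons. The values belong to no sample of this series, so they do not show the purity of the cells profiled for 5mC and 5hmC. These markers are also in the lists above, so their order is not a separate result. Btg2 and Tubb3, whose reporters defined the sort, are among these markers, so that their order was set by the sorting. Markers of other cells had values too, and most of those of microglia, endothelium and mesenchyme were highest in PP, as Sox2, Sox8 and Sox10 were. All 3 measured microglial markers were highest in PP, such as Csf1r with 246.8, then 147 in DP and 67.4 in neurons. Of the 4 endothelial markers 3 were highest in PP, and Kdr was highest in DP, with 195.3, 265.6 and 56.2. Both measured mesenchymal markers were highest in PP, such as Pdgfrb with 842.6, 289.2 and 25.7. The 5 oligodendrocyte lineage markers differed, with 2 highest in PP, 2 in DP and 1 in neurons. Among them Olig2 was at 166.4, 291.6 and 5.8, and Mbp at 666.8, 951.9 and 1102.6. The 3 measured interneuron markers and the 2 measured Cajal-Retzius markers were all highest in neurons. The part of these cells in the Sox values was not tested. In sorted bulk samples fewer cells of a type and less RNA per cell cannot be told apart.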

How the data were processed

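DNA methylation was profiled in sorted cortical cells by MeDIP and hMeDIP, listed as 12 samples. According to the study's methods the authors mapped reads with BWA 0.7.8-r455 to mm10, called peaks with SICER 1.1 in every replicate, merged them, normalized with DiffBind and annotated genes with HOMER 4.7. The labels do not separate the replicates. The deposited levels are log2 values, the authors' mean per cell type, and no p-value, interval or depth could be derived from them. The deposited expression columns are a score on an unnamed linear scale. The tables also hold the authors' fold changes and p-values between cell types, which were not used.

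From these, differences of levels were centred on the median over all peaks of a mark and called at 0.58. Expression ratios used a pseudocount of 1, and peaks were paired by an overlap of 1 bp. Python 3.11.15 with pandas 2.3.3 and numpy 2.4.6 was used, and calls and overlaps were tested on simulated data. All 9 genes were named, with peaks in full for the highest level, the largest gain and loss per gene and mark, and the overlaps. Other peaks named for Sox2 and Sox11 and in the run over Gm21388 were chosen after their values were seen, as were the examples from the lists. Genes and lists were chosen with earlier results of these data known. Alternatives were no centring, a call at 1, peaks within 50 kb, a level of at least 4, leaving out Sox2, other overlaps and a pseudocount of 10. The sequence content of the peaks and their place in exons or introns were not analysed here, and the promoters come from RefSeq on GRCm38.p6, the assembly behind mm10. The genes with expression patterns nearest to Sox2 and Sox11 are not reported here.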

Additional observations from a re-analysis of the deposited data

How the results depend on the processing

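No paired analysis was possible because the levels are 1 mean per cell type. Counts are of members' peaks unless genes are named, and the direction of every single peak called from PP to neurons was unchanged without centring. Without centring, the 5mC peaks called higher in either comparison with neurons were 0, the median 5mC change was −0.19 from DP and −0.23 from PP to neurons, and the Sox2 5hmC peak at 187.4 kb moved to 0.54, under the call. With a call at 1, 5mC counts were 0 lower from PP to DP and 0 higher in both comparisons with neurons, 5hmC counts from PP to DP were 3 higher and 0 lower, 1 peak was lower in 5hmC from DP to neurons and 1 from PP to neurons, and 0 genes were higher in expression from DP to neurons. Within 50 kb of the TSS, which leaves out nearly all of Sox2, 5mC counts were 0 lower from PP to DP, 1 lower from DP to neurons, and 1 higher and 1 lower from PP to neurons. The 5hmC counts were 0 and 0 higher and lower from PP to DP, then 1 and 2 from DP to neurons, and 1 and 1 from PP to neurons. Leaving out Sox2, the 5mC counts were 0 lower in each of the 3 comparisons and 0 higher from PP to neurons, and the 5hmC counts were 0 and 1 from PP to DP, then 2 and 3 from DP to neurons, and 2 and 1 from PP to neurons. Every member peak reached the level limit of 4 in some cell type, so this limit removed none and could not change a count. The other overlaps and the pseudocount of 10 kept each count within 1.5 times. The number of reads per peak is unknown, so the error of low levels such as 0.47 could not be given.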
